A study of Mus musculus with 12 samples.

Results

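The 9 genes described here encode the proteolytic subunits of the proteasome core and the subunits of the PA28 activator. They are the immunosubunits Psmb8 (β5i, LMP7), Psmb9 (β1i, LMP2) and Psmb10 (β2i, MECL1), the constitutive subunits Psmb5 (β5), Psmb6 (β1) and Psmb7 (β2) that hold the same places in the core, and Psme1, Psme2 and Psme3, which encode PA28α, PA28β and PA28γ. They were chosen by what they encode, as the rows of the count table whose Ensembl identifier maps to these symbols, and they are 9 of the 53379 identifiers in the table. Of these 9, all passed the filter on low counts, with 574 to 38283 counts per library.

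Transcripts were measured in a lymphoma line of mouse B cells (strain C57BL/6) from the Eµ-myc model, where an enhancer of the immunoglobulin heavy chain locus drives Myc. The 4 groups, each of 3 libraries, were unstimulated cells and cells exposed for 1 h, 6 h or 24 h to recombinant interferon-γ (IFN-γ, 5 ng/mL). Exposure was ended with 50 µg/mL of a neutralising antibody (clone XMG1.2), and the design text puts the harvest at 24 h after stimulation, so the 1 h and 6 h groups show what was left after a chase. A shorter exposure then also meant a longer time between block and harvest. Exposure length and time since the block cannot be told apart here. The labels do not say whether the unstimulated and 24 h cells also received antibody, whether the line is 1 clone, or whether the 3 libraries of a group came from separate cultures. The p-values therefore measure the spread between these libraries, which may be technical.

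A proteasome core is a stack of rings with proteolytic sites on 3 of its β subunits, and each site can hold either a constitutive subunit or an immunosubunit. Cores with immunosubunits cut proteins into peptides with ends that suit MHC class I binding, and they are common in lymphoid cells even without cytokine. IFN-γ is known to induce the immunosubunits together with PA28α and PA28β, which form a cap that opens the core, while PA28γ is a nuclear activator that is not part of this response.

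Promoter windows of 300 bases (250 before and 50 after the start site) were found in the RefSeq table of GRCm38.p6 for 8 of the 9 genes. Shown here are the immunosubunits Psmb8 and Psmb9 and the activator subunit Psme1, which rose after 24 h, beside the constitutive Psmb5 and Psmb6. Capitals mark matches, on either strand, to a gamma-activated site (GAS, TTCNNNGAA), the core of an interferon-stimulated response element (ISRE, GAAA and GAAA with 2 bases between) or the core of an antioxidant response element (ARE, TGACNNNGC). The Psmb8 window is chr17:34197945-34198244 (plus strand), Psmb9 chr17:34187281-34187580 (minus strand), Psme1 chr14:55578244-55578543 (plus strand), Psmb5 chr14:54617946-54618245 (minus strand) and Psmb6 chr11:70525107-70525406 (plus strand).
Psmb8: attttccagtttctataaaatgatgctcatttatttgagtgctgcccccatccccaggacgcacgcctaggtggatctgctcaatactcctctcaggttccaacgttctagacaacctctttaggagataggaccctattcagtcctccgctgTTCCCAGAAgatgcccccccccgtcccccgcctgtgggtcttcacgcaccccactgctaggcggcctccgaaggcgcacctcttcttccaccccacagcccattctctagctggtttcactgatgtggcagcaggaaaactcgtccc
Psmb9: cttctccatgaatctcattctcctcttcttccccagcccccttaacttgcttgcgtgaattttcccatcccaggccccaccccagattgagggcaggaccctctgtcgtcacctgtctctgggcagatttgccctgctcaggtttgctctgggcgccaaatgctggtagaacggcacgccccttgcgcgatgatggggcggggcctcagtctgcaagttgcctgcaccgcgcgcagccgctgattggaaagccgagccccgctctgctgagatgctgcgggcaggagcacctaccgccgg
Psme1: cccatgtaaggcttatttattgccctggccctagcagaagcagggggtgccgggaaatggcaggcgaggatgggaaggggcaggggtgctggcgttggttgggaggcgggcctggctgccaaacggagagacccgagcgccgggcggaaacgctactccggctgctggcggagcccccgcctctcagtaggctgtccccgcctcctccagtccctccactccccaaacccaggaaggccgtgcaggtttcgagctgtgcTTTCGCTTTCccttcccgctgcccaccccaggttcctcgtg
Psmb5: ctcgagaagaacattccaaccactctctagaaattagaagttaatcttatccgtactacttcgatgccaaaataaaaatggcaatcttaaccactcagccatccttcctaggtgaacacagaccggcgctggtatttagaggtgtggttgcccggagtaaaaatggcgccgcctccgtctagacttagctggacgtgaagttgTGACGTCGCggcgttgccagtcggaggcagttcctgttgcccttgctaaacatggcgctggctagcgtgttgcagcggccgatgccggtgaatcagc
Psmb6: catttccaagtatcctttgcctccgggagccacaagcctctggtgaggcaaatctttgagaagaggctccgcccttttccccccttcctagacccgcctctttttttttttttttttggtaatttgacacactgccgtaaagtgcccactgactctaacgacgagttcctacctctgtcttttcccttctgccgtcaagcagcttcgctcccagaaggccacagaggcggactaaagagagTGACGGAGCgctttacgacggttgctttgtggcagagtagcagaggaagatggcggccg

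Among the 8 genes, 1 window held a GAS match, that of Psmb8, at bases -97 to -89 from the start site. The ISRE core matched in 1, that of Psme1, at bases 10 to 19 on the minus strand. The ARE core matched in the constitutive Psmb5 (bases -47 to -39) and Psmb6 (bases -9 to -1). Over all 32851 mouse promoter windows of this length, 8.3% held a GAS match, 3.44% the ISRE core and 12.4% the ARE core. The windows of Psmb9, Psmb10, Psme2 and Psme3 held none of these letters. A CCAAT box (CCAAT), which 37.4% of all windows hold, lay in those of Psmb9 and Psme3. A match describes the letters of the window and is not evidence of a working site. The Psmb9 window shares 275 of its 300 bases with that of Tap1, a subunit of the peptide transporter, which is transcribed in the other direction. The RefSeq start lies 474 bases from the outer end of the GENCODE gene model for Psmb8, 434 for Psmb9 and 371 for Psme1, and at most 92 for the other genes, so for these 3 the window shows 1 of the possible start regions.

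Levels are given in CPM, counts scaled by library size and TMM factor, for comparisons of 1 gene between groups, and in RPKM, CPM per kilobase of exon, for comparisons between genes. A gene is called higher or lower where the Benjamini-Hochberg adjusted p of edgeR's quasi-likelihood test, over all 14299 genes tested, was under 0.05. Library totals were 49440358 to 67096610 counts, in which both mates of a pair appear to be counted, since 69.9% to 73.9% of the low counts were even. Summed over 8 B cell markers, the libraries held 2484 to 2654 CPM in every group, with Cd79a and Pax5 among the most abundant. Markers of other cells were near 0: at most 1.35 CPM summed over 7 T and NK cell genes, 2.95 over 6 myeloid genes, 0.0894 over 4 thymic epithelial genes and 0.0721 over 3 fibroblast genes, with Cd8a, Cd4, Ncr1, Foxn1 and Krt5 at 0 in every library.

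By fitted fold change the immunosubunits were the strongest risers of the 9 after 24 h of IFN-γ, with Psmb9 far ahead. Psmb9 rose 6.78-fold, Psmb10 2.84-fold and Psmb8 2.64-fold against unstimulated cells, while Psme2 rose 2.35-fold and Psme1 1.84-fold. The 95% intervals of Psmb8 (2.44-fold to 2.86-fold) and Psme2 (2.08-fold to 2.65-fold) overlapped, so the order of these genes is not resolved. Psmb6 and Psme3 were slightly lower, and Psmb5 and Psmb7 were not called. In all, 5 of the 9 were called higher and 2 lower, where 18.7% of all genes tested were called (10.3% higher and 8.35% lower). The 24 h libraries of the 5 that rose all lay above the unstimulated ones, as did those of 17.2% of all genes. In bulk RNA a change in the share of cells that express a gene and a change per cell cannot be told apart.

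Psmb8 (ENSMUSG00000024338.14, chromosome 17, 34197721 to 34201454, GRCm38) encodes the chymotrypsin-like immunosubunit. It stood at 50.9, 42.7 and 52.4 CPM in the 3 unstimulated libraries, at 49.0, 48.8 and 50.0 CPM after 1 h, at 54.7, 55.8 and 53.8 CPM after 6 h, and at 130.5, 125.5 and 129.9 CPM after 24 h. The 24 h libraries lay far above all others, and the 6 h libraries lay just above the unstimulated ones without overlap, as did those of 8.64% of all genes tested. The log2 fold change after 24 h was 1.402 ± 0.06 (SE; edgeR adjusted p = 7.57e-18). After 6 h it was 0.17 ± 0.06 and not called (edgeR adjusted p = 0.142), and after 1 h it was 0.02 ± 0.06 (edgeR adjusted p = 0.958).

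Psmb9 (ENSMUSG00000096727.2, chromosome 17, 34181987 to 34187764) encodes the β1i subunit, which replaces a site that cuts after acidic residues. Its CPM in the 3 libraries of each group was 13.3, 11.5 and 12.02 unstimulated, 12.9, 14.2 and 13.8 after 1 h, 16.1, 16.2 and 18.9 after 6 h, and 79.3, 80.4 and 90.3 after 24 h. It was the least abundant of the 9 before stimulation, and each of its 6 h libraries was above each unstimulated and 1 h library. The log2 fold change was 2.76 ± 0.07 after 24 h (edgeR adjusted p = 3.95e-22; 95% interval 6.10-fold to 7.54-fold). After 6 h it was 0.47 ± 0.08, 1.39-fold, and called (edgeR adjusted p = 0.000439). Psmb9 was the 1 member of the 9 called after 6 h, where 1.59% of all genes were called (1.17% higher).

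Psmb10 (ENSMUSG00000031897.9, chromosome 8, 105935735 to 105938444) encodes the trypsin-like immunosubunit. Unstimulated libraries held 24.0, 20.1 and 22.7 CPM, the 1 h libraries 18.8, 22.9 and 19.4 CPM, the 6 h libraries 21.04, 22.5 and 22.3 CPM, and the 24 h libraries 62.0, 57.4 and 70.6 CPM. The first 3 groups overlapped throughout and the 24 h group lay apart. The log2 fold change was 1.51 ± 0.08 after 24 h (edgeR adjusted p = 2.83e-13) and -0.02 ± 0.08 after 6 h (edgeR adjusted p = 0.946).

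**Figure D1:**
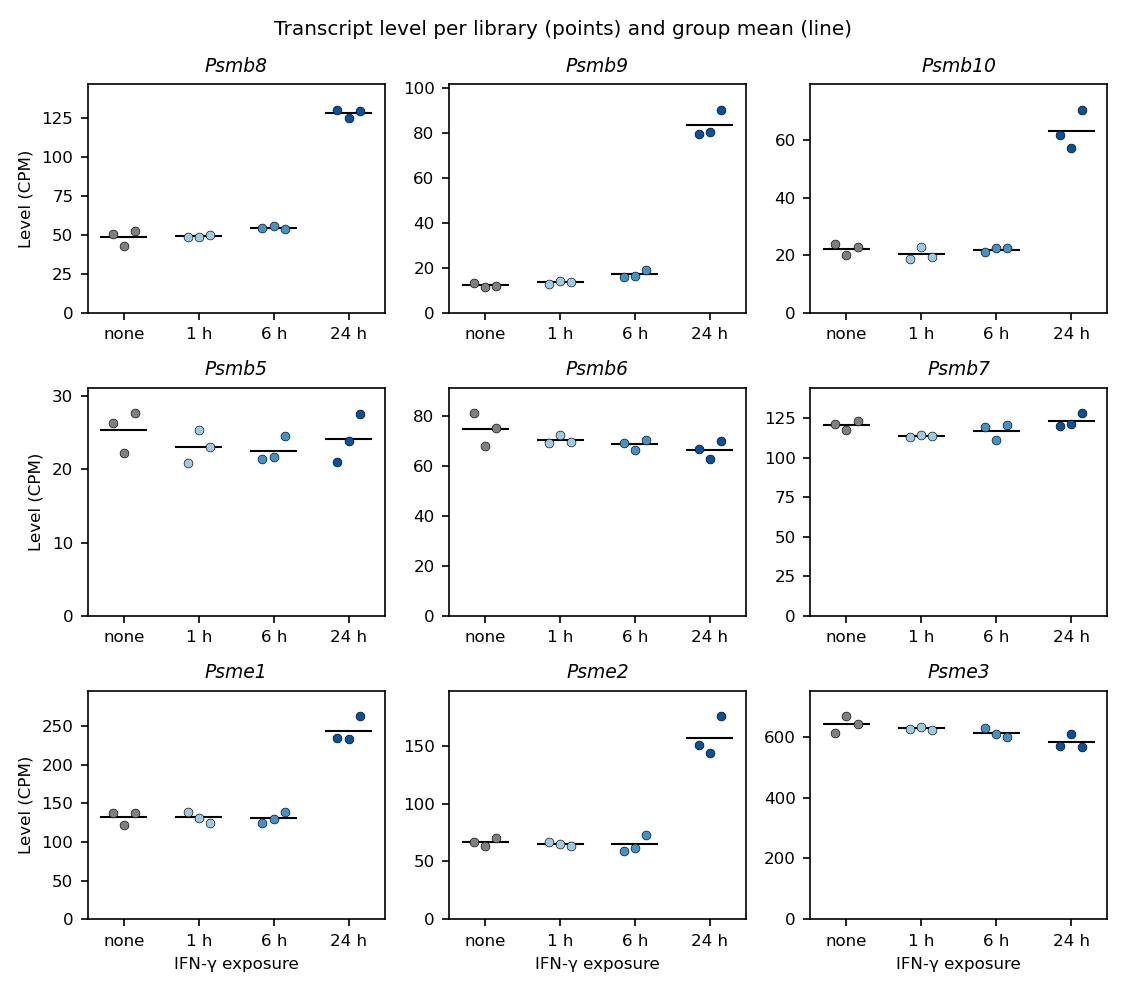
Transcript level in CPM (linear axis from 0) of each of the 9 genes in each library (points) by IFN-γ exposure, with the group mean of 3 libraries as a line. The 24 h libraries of Psmb8, Psmb9, Psmb10, Psme1 and Psme2 lie above every other library, while Psmb5, Psmb6 and Psmb7 overlap between unstimulated and 24 h cells.

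Changes in the constitutive subunits were small at every exposure. Psmb5 (ENSMUSG00000022193.7, chromosome 14, 54614119 to 54618022), the chymotrypsin-like subunit, held 26.3, 22.2 and 27.7 CPM unstimulated and 21.04, 23.9 and 27.6 CPM after 24 h. Its log2 fold change was -0.07 ± 0.10 (edgeR adjusted p = 0.664), and the 95% interval from -0.28 to 0.13 leaves room for a change of that size in either direction. After 1 h it held 20.9, 25.3 and 23.1 CPM and after 6 h 21.4, 21.7 and 24.5 CPM, all within or close to the unstimulated range.

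Psmb6 (ENSMUSG00000018286.6, chromosome 11, 70525367 to 70527858), the caspase-like subunit, held 81.2, 68.1 and 75.2 CPM unstimulated, 69.1, 72.5 and 69.5 CPM after 1 h, 69.3, 66.4 and 70.4 CPM after 6 h, and 66.7, 63.0 and 70.05 CPM after 24 h. It was called lower after 24 h (log2 fold change -0.17 ± 0.06, edgeR adjusted p = 0.0307), although 1 of the 24 h libraries lay within the unstimulated range. The call was lost without unstimulated replicate 1 (edgeR adjusted p = 0.291) or 3 (0.0876), without 24 h replicate 1 (0.086) or 2 (0.17), and when only the 6 libraries compared were fitted (0.051).

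Psmb7 (ENSMUSG00000026750.6, chromosome 2, 38588036 to 38644087), the trypsin-like subunit, held 121.5, 117.7 and 123.0 CPM unstimulated, 113.1, 114.2 and 113.4 CPM after 1 h, 119.3, 110.9 and 120.6 CPM after 6 h, and 120.1, 121.3 and 128.1 CPM after 24 h. The 1 h libraries lay together below the unstimulated and the 24 h ones. The log2 fold change was 0.03 ± 0.04 after 24 h against unstimulated cells (edgeR adjusted p = 0.706; 95% interval -0.06 to 0.12). Against 1 h it was 0.12 ± 0.04, which edgeR did not call (adjusted p = 0.0597) and DESeq2 did (adjusted p = 0.0329).

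At each site the immunosubunit was then set against its constitutive counterpart within the same library, which cancels the library scaling. Per length, the mean Psmb8:Psmb5 ratio was 0.509 ± 0.00540 (SD, n = 3) in unstimulated cells, 0.570 ± 0.0554 after 1 h, 0.648 ± 0.0564 after 6 h, and at 24 h it was 1.43 ± 0.201. The 3 unstimulated libraries lay within 0.503 to 0.513 and the 3 libraries at 24 h were at 1.65, 1.39 and 1.254. The ratio at the β5 site was thus below 1 in all 9 libraries of the first 3 groups and above 1 in the 3 libraries at 24 h. Both genes enter the early rise of the ratio. After 1 h the log2 fold change was 0.02 ± 0.06 for Psmb8 and -0.14 ± 0.10 for Psmb5. After 6 h it was 0.17 ± 0.06 and -0.18 ± 0.10, and edgeR called none of these.

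At the β1 site the Psmb9:Psmb6 ratio was the lowest and changed most. It was 0.0838, 0.0864 and 0.0817 in the unstimulated libraries, 0.0952, 0.1003 and 0.102 after 1 h, 0.119, 0.125 and 0.138 after 6 h, and 0.608, 0.653 and 0.659 after 24 h. The 4 groups did not overlap and stood in the order of exposure. At 24 h Psmb9 was still below Psmb6 per length in every library, after a 7.62-fold change in the ratio. Psmb6 also enters the earlier steps. Its log2 fold change was -0.09 ± 0.06 after 1 h and -0.12 ± 0.06 after 6 h (edgeR adjusted p = 0.647 and 0.308). That of Psmb9 was 0.15 ± 0.08 and 0.47 ± 0.08.

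At the β2 site the Psmb10:Psmb7 ratio was 0.397, 0.343 and 0.370 unstimulated, 0.333, 0.402 and 0.342 after 1 h, 0.354, 0.408 and 0.371 after 6 h, and 1.03, 0.949 and 1.11 after 24 h. The first 3 groups overlapped, and the 24 h libraries stood around 1.

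An exact permutation test of the libraries, on the between-group F of the log2 ratio, asked whether each ratio differed among the 4 groups. This test says that groups differ, not which. Over 24 tests of 12 ratios, the Benjamini-Hochberg adjusted exact permutation p was 0.00468 for Psmb8:Psmb5, 0.000779 for Psmb9:Psmb6 and 0.0357 for Psmb10:Psmb7. The raw p for Psmb9:Psmb6, 6.49e-05, is the smallest that 3 libraries in each of 4 groups can give. Among unstimulated, 1 h and 6 h cells alone, the adjusted exact permutation p was 0.0143 for Psmb9:Psmb6 (raw 0.00357, the smallest possible), 0.0753 for Psmb8:Psmb5 (raw 0.0429) and 0.826 for Psmb10:Psmb7. For Psmb8:Psmb5 this second test passed in 1 of 12 fits with a library left out, that without 1 h replicate 2. Over the 12 the adjusted exact permutation p ran from 0.0367 to 0.196. An exact permutation test of 3 libraries against 3 cannot go below p = 0.10, so no pair of groups was tested in this way.

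**Figure D2:**
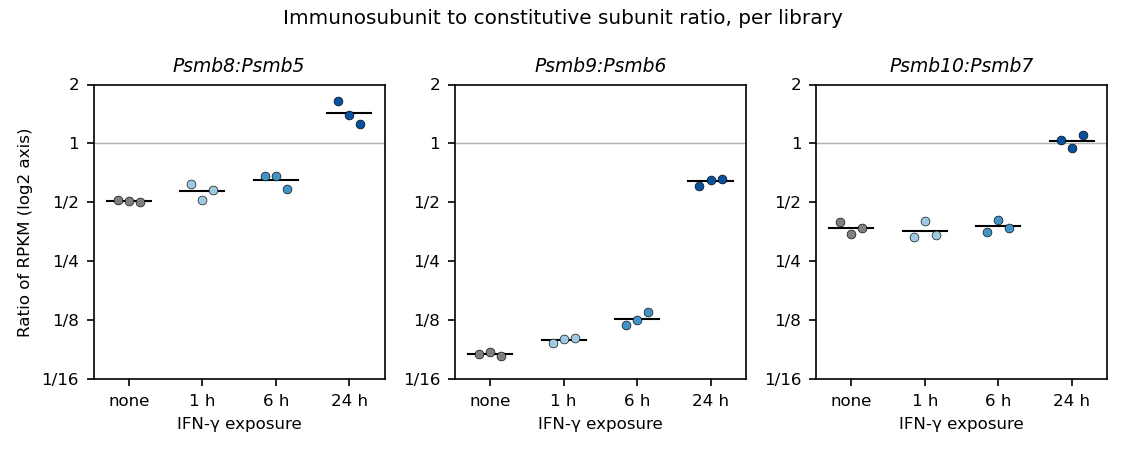
Ratio of RPKM on a log2 axis for the 3 pairs of subunits, 1 point per library and the group mean as a line. The Psmb9:Psmb6 ratio climbs with exposure without overlap between groups, Psmb8:Psmb5 passes 1 at 24 h, and Psmb10:Psmb7 is flat until 24 h.

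The size of a ratio depends on the length taken for each gene, and its change does not. With the longest transcript in place of all exons, the mean Psmb8:Psmb5 ratio was 0.902 unstimulated and 2.54 after 24 h, with 1.01 after 1 h and 1.15 after 6 h, so that the crossing of 1 moved to the shorter exposures. With that length the mean Psmb9:Psmb6 ratio ran from 0.0550 to 0.419 and the mean Psmb10:Psmb7 ratio from 0.401 to 1.115.

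Expressed as a share of the 6 catalytic transcripts per length, immunosubunits made up 23.2, 22.4 and 23.1% in the unstimulated libraries, 23.7, 24.0 and 23.8% after 1 h, 25.6, 27.1 and 25.4% after 6 h, and 50.6, 49.2 and 49.8% after 24 h. The groups did not overlap in this share, and the step after 24 h was far larger than the steps before it. A share moves with either sum. After 1 h the immunosubunit sum was not higher (0.981 times unstimulated), and the constitutive sum was lower (0.932 times). By site, the immunosubunit share went from 33.7 ± 0.24% to 58.7 ± 3.34% at β5, from 7.75 ± 0.20% to 39.0 ± 1.04% at β1, and from 27.0 ± 1.42% to 50.7 ± 1.92% at β2 (SD, n = 3). After 6 h the shares were 39.3 ± 2.12% at β5, 11.3 ± 0.76% at β1 and 27.4 ± 1.44% at β2. The size of a share depends on the length taken. With the longest transcript, the β5 share went from 47.4 ± 0.27% unstimulated to 71.6 ± 2.79% after 24 h. The β1 share then went from 5.21 ± 0.14% to 29.5 ± 0.91% and the β2 share from 28.6 ± 1.47% to 52.7 ± 1.91%.

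**Figure D3:**
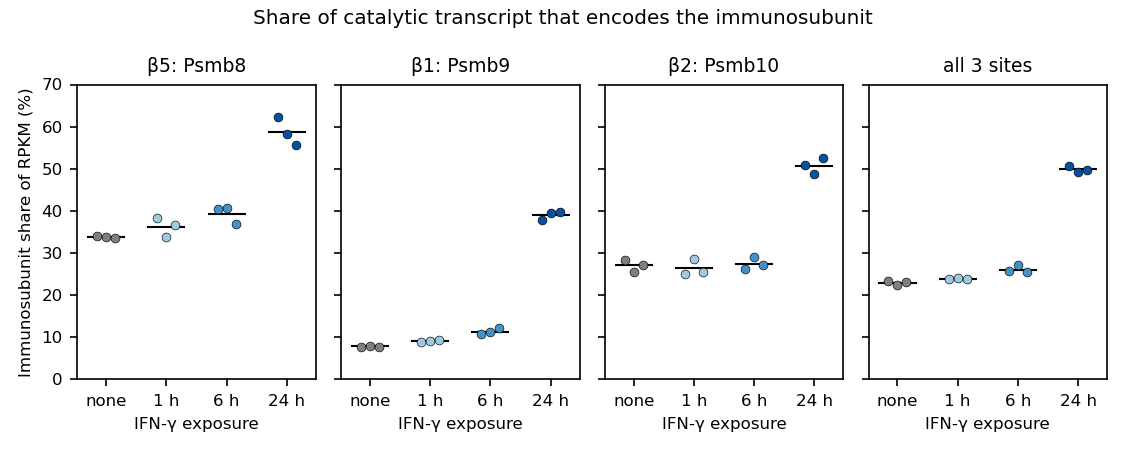
Share of catalytic transcript (RPKM, in percent) that encodes the immunosubunit, at each of the 3 sites and over all 6 subunits, 1 point per library with the group mean as a line. Over all sites the share stands between 22.4% and 27.1% in the first 3 groups and between 49.2% and 50.6% after 24 h.

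The summed level of the 6 catalytic transcripts also grew. It was 134.4 ± 9.85 RPKM in unstimulated cells, 126.7 ± 4.94 after 1 h, 129.7 ± 4.17 after 6 h, and at 24 h it was 196.4 ± 11.8. The 3 immunosubunits together rose from 30.8 ± 2.83 to 97.9 ± 5.98 RPKM, 3.18 times the unstimulated sum, while the 3 constitutive subunits stood at 103.6 ± 7.02 and 98.5 ± 6.16 RPKM. At 24 h both sets thus had nearly equal sums, and the constitutive sums of the 2 groups overlapped. After 1 h the immunosubunit sum was 30.2 ± 1.39 RPKM and the constitutive sum 96.5 ± 3.56 RPKM. After 6 h they were 33.8 ± 0.729 RPKM (1.095 times unstimulated) and 96.0 ± 4.06 RPKM (0.927 times).

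Within the immunosubunits the make-up shifted toward Psmb9. Its share of the 3 immunosubunit transcripts per length was 10.9 ± 0.60% unstimulated, 12.3 ± 0.25% after 1 h, 13.8 ± 1.16% after 6 h, and at 24 h it was 23.2 ± 0.71%. The Psmb8:Psmb9 ratio fell from 4.29 ± 0.376 to 1.68 ± 0.113 and the Psmb9:Psmb10 ratio rose from 0.257 ± 0.00975 to 0.615 ± 0.0330 (adjusted exact permutation p over 4 groups = 0.0026 and 0.000779). Both also differed among the first 3 groups (adjusted exact permutation p = 0.0362 and 0.0143). The Psmb8:Psmb10 ratio, at 1.10 ± 0.0554 unstimulated and 1.03 ± 0.0916 after 24 h, was not called (adjusted exact permutation p = 0.0753). Among the constitutive subunits, Psmb6:Psmb7 went from 1.13 ± 0.0829 to 0.988 ± 0.0345 (adjusted exact permutation p = 0.0249), while Psmb5:Psmb6 (0.635) and Psmb5:Psmb7 (0.797) were not called.

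The order of the 9 transcripts per length changed accordingly. In unstimulated cells Psme3 led at 217.7 RPKM, followed by Psme1 (59.9), then by Psmb6 (40.0), Psme2 (37.9) and Psmb7 (35.3), of which each overlapped its neighbour. Psmb5 (28.3 RPKM) came next, followed by Psmb8 (14.4) and Psmb10 (13.1), which overlapped, and Psmb9 (3.36). After 24 h Psme3 (197.5 RPKM), Psme1 (110.4) and Psme2 (88.9) led without overlap. Psmb8 (38.0 RPKM), Psmb10 (37.1), Psmb7 (36.0) and Psmb6 (35.6) formed a run in which each overlapped the next, and Psmb5 (26.9) overlapped Psmb9 (22.8) at the bottom. With the longest transcript as length this order differs. In unstimulated cells Psmb6 (77.5 RPKM) and Psme2 (69.5) then stood above Psme1 (66.6), and after 24 h Psme2 (163.0) stood above Psme1 (122.8). Psmb6 then stood at 68.9 and Psmb8 at 67.5 RPKM after 24 h, above Psmb10 (48.3) and Psmb7 (43.2).

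The PA28 genes divided into 2 that rose and 1 that did not. Psme1 (ENSMUSG00000022216.17, chromosome 14, 55578123 to 55581529), PA28α, held 137.6, 121.5 and 137.8 CPM unstimulated, 139.3, 130.8 and 125.2 CPM after 1 h, 124.9, 130.2 and 138.3 CPM after 6 h, and 235.1, 233.9 and 262.9 CPM after 24 h. The first 3 groups covered the same range and the 24 h libraries lay clear of it. Its log2 fold change after 24 h was 0.88 ± 0.06 (edgeR adjusted p = 4.2e-12), and after 6 h it was -0.01 ± 0.06 (edgeR adjusted p = 0.952).

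Psme2 (ENSMUSG00000079197.10, chromosome 14, 55587441 to 55591113), PA28β, lies next to Psme1. It held 66.9, 63.2 and 70.4 CPM unstimulated, 67.0, 65.4 and 63.2 CPM after 1 h, 58.9, 61.9 and 73.3 CPM after 6 h, and 151.1, 143.7 and 175.7 CPM after 24 h. The pattern was that of Psme1, with a log2 fold change after 24 h of 1.23 ± 0.08 (edgeR adjusted p = 1.75e-08). Psme2b, a near-identical copy, had 371 to 1386 counts per library and rose from 8.17 ± 1.00 to 20.5 ± 0.952 CPM (1.32 ± 0.10, edgeR adjusted p = 1.83e-11). Reads of Psme2 and Psme2b could be split between the copies in counting, so their single values are uncertain. The Psme1:Psme2 ratio fell from 1.58 ± 0.0564 to 1.246 ± 0.0526 (adjusted exact permutation p = 0.0357).

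Psme3 (ENSMUSG00000078652.9, chromosome 11, 101316213 to 101323537), PA28γ, was the most abundant of the 9. It held 614.0, 668.7 and 643.3 CPM unstimulated, 626.5, 634.7 and 625.1 CPM after 1 h, 628.9, 609.0 and 599.3 CPM after 6 h, and 569.1, 609.5 and 568.8 CPM after 24 h. The 24 h libraries lay just below the unstimulated ones without overlap, as did those of 16.8% of all genes tested. It was called lower (log2 fold change -0.14 ± 0.04, edgeR adjusted p = 0.0173), and the call was lost without unstimulated replicate 2 (edgeR adjusted p = 0.0868) or 3 (0.0528) and without 24 h replicate 1 (0.0921) or 3 (0.0683). The Psme1:Psme3 ratio went from 0.276 ± 0.0297 to 0.560 ± 0.0529 and Psme2:Psme3 from 0.174 ± 0.0141 to 0.451 ± 0.0615 (adjusted exact permutation p = 0.0362 for each), and neither passed the test among the first 3 groups (0.887 and 0.996).

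Little of the 24 h change was present when IFN-γ had been blocked early. In CPM above unstimulated cells, the 6 h libraries held 7.63% of the 24 h rise for Psmb8 and 6.75% for Psmb9, whereas the mean of Psmb10 stood at -0.318 CPM relative to unstimulated cells, with overlapping libraries. The Psmb8 share was 4.04% without unstimulated replicate 2, the lowest library of its group. Of the 9 members, 0 were called after 1 h by edgeR, where 0.42% of all genes were called (0.273% higher), 0 had an unadjusted p under 0.05, and 0 were called by DESeq2 or limma-voom. The nearest was Psmb7 at -5.95% (edgeR unadjusted p = 0.0521, adjusted p = 0.54), whose 1 h libraries lay below the unstimulated ones, as did those of 6.98% of all genes. Psmb9 was 0.15 ± 0.08 above unstimulated cells on the log2 scale after 1 h (edgeR adjusted p = 0.564), with overlapping libraries.

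Between the 2 blocked exposures, 0 members were called by edgeR, where 0.0979% of all genes were called (0.0839% higher), and 2, Psmb8 and Psmb9, had an unadjusted p under 0.05. Both had 6 h libraries above the 1 h ones, as did 5.14% of all genes. Psmb9 was 0.32 ± 0.08 higher after 6 h than after 1 h (edgeR adjusted p = 0.126) and was called by DESeq2 (adjusted p = 0.0263) and by edgeR with a filter of at least 1 count in any library (adjusted p = 0.00418), but not by limma-voom. Psmb8 was 0.15 ± 0.06 higher (edgeR adjusted p = 0.806). From 6 h to 24 h the same 5 members were called higher as against unstimulated cells, where 16.5% of all genes were called (8.92% higher). The log2 fold change for that step was 2.29 ± 0.07 for Psmb9, 1.53 ± 0.08 for Psmb10, 1.28 ± 0.08 for Psme2, 1.23 ± 0.06 for Psmb8 and 0.90 ± 0.06 for Psme1. Against 1 h edgeR called the same 5 (18.9% of all genes, 10.2% higher). Psme3 was called lower in that comparison by DESeq2 (-0.11, adjusted p = 0.0374) and limma-voom (-0.11, adjusted p = 0.0474), and not by edgeR (adjusted p = 0.0642). These comparisons share libraries and are not independent of each other.

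**Figure D4:**
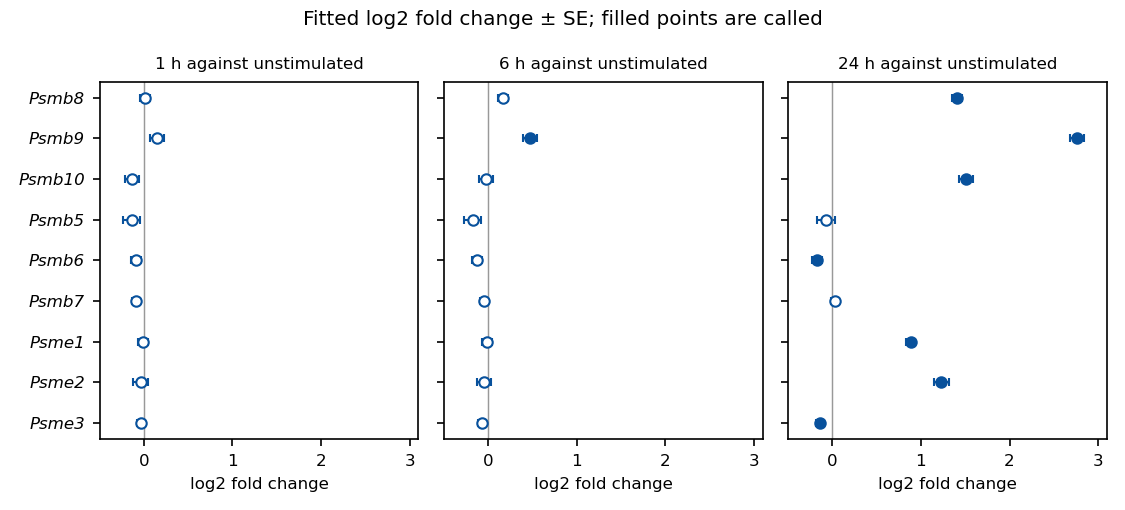
Log2 fold change from edgeR (points, with the SE as bars) of the 9 genes after 1 h, 6 h and 24 h against unstimulated cells, with called genes filled. After 1 h 0 are filled, after 6 h Psmb9 is, and after 24 h 7 are.

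Other proteasome genes show how far the change reached beyond these 9. Of 11 structural subunits of the core, which carry no active site, 4 were called higher after 24 h and 0 lower, against 10.3% and 8.35% of all genes, with a median log2 fold change of 0.0044 (all genes tested, -0.0028). The 4 were the α ring genes Psma4 (0.26 ± 0.05, edgeR adjusted p = 0.000416), Psma1 (0.20 ± 0.05), Psma5 (0.17 ± 0.05) and Psma2 (0.12 ± 0.04). Psma5 lost its call without unstimulated replicate 2 (edgeR adjusted p = 0.0967) or 24 h replicate 1 (0.0574), and Psma2 without unstimulated replicate 2 or 3 or 24 h replicate 1 or 2 (0.084 to 0.159). The count higher was 2 without 24 h replicate 1 or unstimulated replicate 2. DESeq2 and limma-voom also called 0 of the 11 lower, and 1, Psmb2, was lower at an unadjusted p under 0.05. Without unstimulated replicate 2, Psmb2 was called lower (-0.16, edgeR adjusted p = 0.0143); it is named after its values were seen.

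Of 18 genes of the 19S regulatory particle, which binds and unfolds ubiquitinated proteins, 0 were called higher and 3 lower, with a median of -0.04. Over all genes 18.7% were called (10.3% higher and 8.35% lower). The count of 3 of 18 is near the share called in either direction, and all 3 were lower. The 3 were Psmd7 (-0.17 ± 0.05), Psmc2 (-0.16 ± 0.05) and Psmd13 (-0.13 ± 0.05, edgeR adjusted p = 0.0459). DESeq2 and limma-voom also called 0 higher and 3 lower, and 0 were higher at an unadjusted p under 0.05. Without single libraries the count lower was 0 (unstimulated replicate 1 or 24 h replicate 2) or 1 (unstimulated replicate 3 or 24 h replicate 3). Of 11 tested assembly and other cap factors, 1 was higher and 1 lower, also near the share of all genes (18.7%), with a median of 0.0048. The one higher was the core chaperone Psmg4, from 4.44 ± 0.112 to 7.91 ± 0.225 CPM (0.83 ± 0.12, edgeR adjusted p = 3.28e-06). The activator Psme4 (PA200) was lower by a small amount (-0.14 ± 0.04, edgeR adjusted p = 0.0123), and lost the call without unstimulated replicate 3 (0.0578) or 24 h replicate 3 (0.0824). Pomp, the maturation factor of the core, was at 0.18 ± 0.07 and was not called by edgeR (adjusted p = 0.0883), but was called with a filter of at least 1 count in any library (0.00388) and with only the 6 libraries compared (0.0141); it is named after its value was seen. The tissue-specific core subunits Psmb11 (thymus) and Psma8 (testis) had at most 2 and 0 counts in a library and were not tested.

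The genes that supply peptides to class I molecules rose together, 4 of 4 after 24 h (10.3% of all genes were called higher) with a median of 1.29. Tap1 went from 16.2 ± 0.376 to 136.5 ± 3.60 CPM (3.08 ± 0.06, edgeR adjusted p = 7.13e-26), the tapasin gene Tapbp rose by 1.39 ± 0.06, Tap2 by 1.19 ± 0.07 and the trimming peptidase Erap1 by 0.81 ± 0.04. Tap1 was also called after 6 h (0.61 ± 0.06, edgeR adjusted p = 1.21e-07), where its neighbour Psmb9 was called too. Psmb9 and Tap1 share 212 exonic bases on opposite strands, 5.79% of the Psmb9 exons, and because the strand setting of the counting is not given, reads from those bases cannot be assigned to either gene with certainty.

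Of 10 known regulators of these genes, 5 were called higher after 24 h and 1 lower, against 10.3% and 8.35% of all genes, with a median of 0.21. The transcription factor Irf1 rose from 10.6 ± 0.245 to 221.1 ± 8.92 CPM (4.39 ± 0.06), and Nlrc5, the class I transactivator, rose by 2.61 ± 0.05. The 1 called lower was Nfe2l1 (-0.16 ± 0.05, edgeR adjusted p = 0.028), which drives proteasome genes when proteasome activity is low; it lost the call without unstimulated replicate 1 or 3 or 24 h replicate 1 or 2 (adjusted p from 0.0799 to 0.252). After 6 h Nlrc5 was called (0.45 ± 0.05, edgeR adjusted p = 8.67e-07), while Irf1 was not (0.19 ± 0.06, edgeR adjusted p = 0.109).

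After 6 h, where 1.59% of all genes were called, 1 of 11 core structural genes and 1 of 18 genes of the 19S particle were called. So were 1 of 10 regulators and 1 of 4 peptide supply genes, and 0 of 11 assembly and other cap factors. After 1 h 1 of 10 regulators was called and 0 in the other lists, against 0.42% of all genes. After 6 h Psmb3 (-0.16 ± 0.04, edgeR adjusted p = 0.0381) and Psmd8 (-0.17 ± 0.04, edgeR adjusted p = 0.0216) were called lower, and neither call was firm. It was lost for Psmb3 without any 1 of the unstimulated libraries or 6 h replicate 1 or 2 (adjusted p from 0.0537 to 0.144), and for Psmd8 without unstimulated replicate 1 or 3 or 6 h replicate 1 or 2 (0.0921 to 0.123). After 1 h Nlrc5 was called (0.26 ± 0.05, edgeR adjusted p = 0.00786), and its call was lost without unstimulated replicate 1 (0.0571) or 3 (0.0669) or 1 h replicate 3 (0.096).

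**Figure D5:**
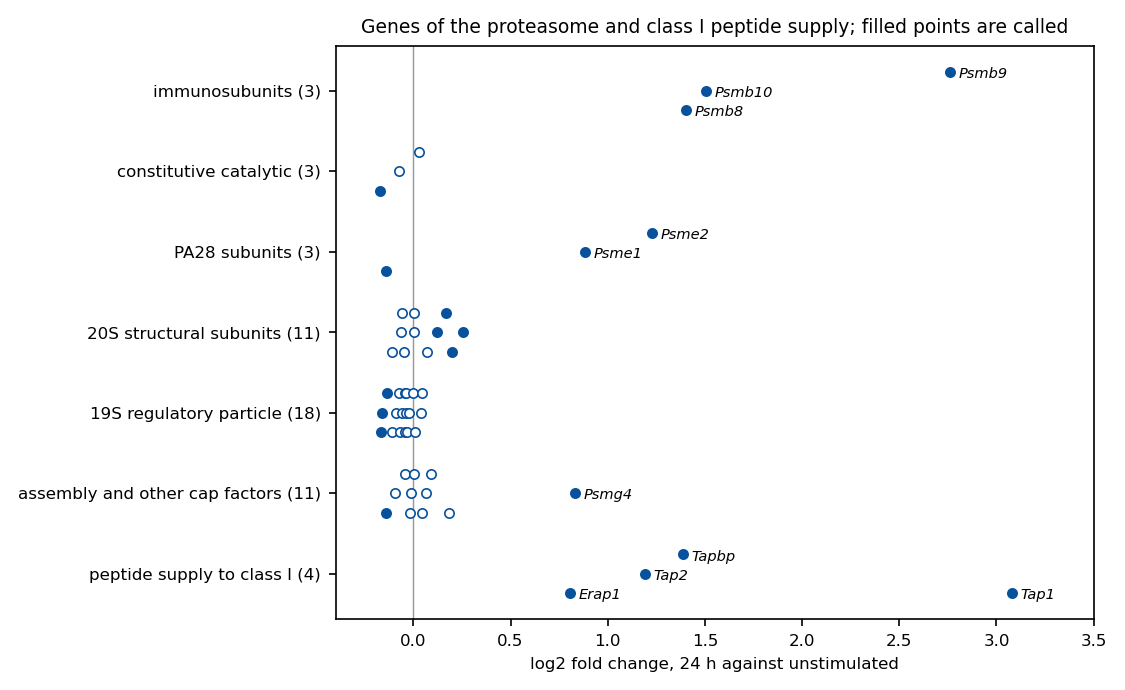
Log2 fold change after 24 h against unstimulated cells for each gene of the catalytic, PA28 and wider proteasome lists and of peptide supply (points, filled where called, number tested in brackets). Psmb8, Psmb9, Psmb10, Psme1, Psme2, Psmg4 and the 4 peptide supply genes lie above 0.8, and the other genes lie between -0.17 and 0.26.

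The genes closest in pattern to each immunosubunit were found by the Euclidean distance of the 3 log2 fold changes against unstimulated cells. The 9829 candidates were tested genes with a symbol whose mean reached 1 CPM. Symbols of predicted genes (Gm with a number, or ending in Rik) were left out. Nearest to Psmb9 were Nlrc5 (distance 0.192), the integrin chain Itgb7 (0.217), 9930111J21Rik1 (0.351), Tap1 (0.359) and the cytokine Csf1 (0.365). Nearest to Psmb8 were Omp (0.0727), the class I gene H2-T22 (0.0742), the transcription factor Irf8 (0.0789), the class II gene H2-Eb1 (0.0906) and Ifi27 (0.105). Nearest to Psmb10 were Themis2 (0.0582), Parp9 (0.117), Tapbp (0.159), Tnfrsf14 (0.167) and Evi2a (0.191). The distances to Psmb9 were larger, and Psmb9 had the largest change of the 3. The 4 group means behind each distance share the unstimulated libraries. For Omp, Ifi27, Itgb7 and Themis2 the largest SE of the 3 fold changes exceeded the distance, so their places in the order are not resolved. H2-T22, Irf8 and H2-Eb1 lay 0.0742 to 0.0906 from Psmb8 with largest SEs of 0.0597 to 0.0744, so their order is not resolved either. The SE of the immunosubunit itself adds to this, and the order of the other genes was not tested. Omp, whose level was 0.867 ± 0.310 CPM unstimulated and 2.35 ± 0.364 CPM after 24 h, reached a mean of 1 CPM through the 24 h group, and its first place carries no information.

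Overlapping genes could touch other members as well. Psmb7 shares 405 exonic bases (11.84% of its exons) with Nek6 on the other strand, which had 188 to 255 counts against at least 5874 for Psmb7. Psmb5, the lower term of the Psmb8:Psmb5 ratio, shares 109 exonic bases (12.12% of its exons) with the microRNA gene Mir686. That gene lies on the same strand and had 0 counts in every library. Psmb8 shares 498 bases with the antisense Gm20496, which had at most 2 counts in any library, and the processed copies of Psmb5, Psmb6 and Psmb7 had at most 4. A low count in an overlapping gene does not show that the member lost no reads. Whether reads of the members were lost over shared bases was not tested.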

How the data were processed

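Stranded libraries were prepared from polyadenylated RNA (500 ng of total RNA, 10 PCR cycles) and sequenced in pairs of 125 bp reads, per the labels' protocols. The values deposited by the authors are raw counts for each gene. The submitters' processing notes name STAR 2.5.2a, featureCounts 1.4.3-p1, Picard and mm10; which annotation release and strand setting were used is not given in the sources used here. Some separators in the header are doubled, so its 12 names were read in order over the 12 value columns and matched to the sample titles. Of 53379 identifiers, 53274 had a symbol. Coordinates and exon lengths came from GENCODE M21 (GRCm38), where the identifier versions of Psmb8 and Psmb9 differ from those in the table.

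After filterByExpr by group and TMM scaling, 1 edgeR 4.0.16 model (R 4.3.3; robust quasi-likelihood F test, 8 residual degrees of freedom, Benjamini-Hochberg over 14299 genes) was fitted to the 4 groups. Each SE is the log2 fold change over the square root of its F. RPKM is CPM per kilobase of the union of exons. Ratios were tested by exact permutation over libraries. The edgeR fit was tested on simulated counts with known changes, for 24 h against unstimulated cells only. Alternatives were DESeq2 1.42.0, limma-voom 3.58.1, RLE size factors, other filters, the 6 libraries compared alone, a replicate block, an adjusted p under 0.01, counts halved to read pairs, other lengths and each library left out; a correction for exon length and the alternatives for the wider lists were added after seeing the data.

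The members, lists and tests were chosen with earlier results of these data known, and the motifs with the results shown here known. The genes named are the 9 members, Tap1, Irf1 and Nlrc5, the called genes of each list (the largest 2 in each direction where over 5 were called), and the 5 genes nearest in pattern to each immunosubunit; some genes under this rule are not reported here. Promoter windows are those of RefSeq on GRCm38.p6.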

Additional observations from a re-analysis of the deposited data

How the results depend on the processing

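Of 1728 values of single members and list genes under an alternative setting, 1669 stayed on the same side of the threshold, 43 lost the call, 16 gained it, and 0 called values changed sign. The calls for Psmb8, Psmb9, Psmb10, Psme1 and Psme2 after 24 h held in every setting run. The number of members called after 6 h against 1 h was 0, and 1 with DESeq2 and with a filter of at least 1 count in any library; the cause was not tested. Members called after 24 h were 7, and 5 to 6 with a library left out. At an adjusted p under 0.01 the 20S list had 2 calls, the 19S list 0 and the assembly list 1, because the threshold is stricter. With a library left out the counts were 2 to 4, 0 to 4 and 1 to 2; the cause was not tested.

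The log2 shift of the ratios from unstimulated to 24 h ranged, with a library left out, from 1.38 to 1.58 for Psmb8:Psmb5, 2.91 to 2.97 for Psmb9:Psmb6 and 1.42 to 1.53 for Psmb10:Psmb7. The rise in immunosubunit share was 27.0 percentage points, 26.6 to 27.3 with a library left out, and 29.0 with no length scaling.

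With the replicate number as a replicate block, Psmb10:Psmb7 kept its shift of 1.48 but not its call (adjusted exact permutation p = 0.0744 over 12 tests), and no member call changed; Pomp after 24 h gained its call (edgeR adjusted p = 0.0261). The deviations of same-numbered libraries correlated at -0.348 to 0.264 over 8308 genes, over 0.1 in 8 of 18 pairs, and a library correlated best with its own number in 16 of 36 matches to another group. The labels give no shared origin for a number, so the numbers were not taken to pair the libraries, and a batch shared by some of them was not tested. With 3 libraries a group and members counted at 574 or more, the spread between libraries limits the smaller differences, those of Psmb5, Psmb6, Psmb7 and Psme3.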

Other observations

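Tap1, which shares most of its promoter window with Psmb9, held 16.2, 16.5 and 15.8 CPM in the unstimulated libraries, 17.8, 20.4 and 19.5 CPM after 1 h, 23.3, 25.3 and 25.2 CPM after 6 h, and 134.8, 134.1 and 140.6 CPM after 24 h. Its 4 groups did not overlap and stood in the order of exposure. The share of all genes with such an order was not counted. Against unstimulated cells, edgeR did not call Tap1 after 1 h (0.25 ± 0.06 on the log2 scale, adjusted p = 0.0531) and DESeq2 did (adjusted p = 0.0167). Over its 16 alternatives the adjusted p from edgeR, DESeq2 or limma-voom ran from 0.0167 to 0.283.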
